A study of Mus musculus with 18 samples.

Results

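Ion channel and connexin genes of the heart were followed in left ventricular tissue of mice after ischemia/reperfusion (I/R). The group consists of 33 genes chosen by name for subunits of potassium, sodium, calcium, pacemaker, cation and chloride channels and for 3 connexins. All 33 are among the 24479 genes measured on the arrays. There were 3 arrays in each of 6 groups: DKO sham, DKO 1 day after I/R, DKO 5 days after I/R, and the same 3 states in FFFF hearts. In FFFF mice both Camk2d and Camk2g are flanked by loxP sites and no Cre is present, and the labels name them wild-type (noCre). DKO mice carry the same floxed alleles together with Cre driven by the α-MHC promoter, which removes CaMKIIδ and CaMKIIγ from cardiomyocytes and leaves both genes intact in the other cells of the ventricle. All mice had a mixed 129/Sv and C57BL/6 background and were 10 to 15 weeks old at surgery. I/R consisted of 60 min of ligation of the left anterior descending coronary artery followed by reperfusion. No source names the animal behind an array, so p-values measure the spread between these arrays.

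The cardiac action potential is shaped by sodium and calcium channels, which carry inward current, and by several potassium currents, which end it. In the mouse ventricle the fast transient outward potassium current repolarizes the cell early, inward rectifiers hold the resting potential, and ATP-sensitive potassium channels open when energy runs short. Connexins form the gap junctions through which the impulse passes between cells. CaMKII phosphorylates several of these channels and is studied as a link between calcium handling and arrhythmia.

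Values are given on the log2 scale of the deposited table, where a difference of 1 is a doubling. Signals of different genes are not compared as amounts of RNA, since probes differ in brightness. Of the 33 genes, 28 lay above the 40th percentile of all genes in each of the 18 arrays. The other 5 were dimmer. Scn4b, Hcn4, Clcn1, Kcnv2 and Cacna1g passed that level in 4, 6, 6, 7 and 15 arrays, so their differences lie near the lower end of the measured range and can be compressed there.

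Genotype labels were checked on the deleted genes. In 8 of the 9 DKO arrays, Camk2d and Camk2g lay below every FFFF array of the same day. The exception, labelled DKO I/R 1 day replicate 1, stood at 9.71 for Camk2d and 7.10 for Camk2g, both within the FFFF range of that day. Its companions had 7.90 and 8.31 for Camk2d. Every value of DKO hearts at 1 day includes this array unless stated. Xist and Y-linked transcripts showed that replicates 1 and 2 of both genotypes at 5 days came from males, and that the other 14 arrays came from females. Sex and the 5 day groups are therefore partly mixed.

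Other cell types changed with I/R in the same tissue. The mean log2 value of 19 measured cardiomyocyte markers was 12.67 to 12.72 in DKO and 12.67 to 12.75 in FFFF hearts after sham surgery, 12.20 to 12.53 in DKO and 12.05 to 12.52 in FFFF hearts at 1 day, and 12.01 to 12.44 in DKO and 11.65 to 12.60 in FFFF hearts at 5 days. Of these markers, 8 fell at 1 day and 13 at 5 days, and none rose. Of 15 leukocyte markers, 13 rose at 1 day and 12 at 5 days. Their mean was 6.35 to 6.52 in DKO and 6.10 to 6.24 in FFFF sham hearts, 7.02 to 8.96 in DKO and 7.85 to 9.06 in FFFF hearts at 1 day, and 8.11 to 8.67 in DKO and 7.48 to 9.87 in FFFF hearts at 5 days. Of 14 fibroblast markers, 5 rose and 5 fell at 1 day, and 10 rose and 3 fell at 5 days. Their mean was 9.40 to 9.74 in DKO and 8.67 to 8.72 in FFFF sham hearts, without overlap. It was 8.53 to 9.91 in DKO and 8.51 to 9.10 in FFFF hearts at 1 day. At 5 days it was 10.58 to 10.83 in DKO and 10.28 to 10.62 in FFFF hearts. None of these markers passed as DKO minus FFFF in sham hearts. The part of this sham difference in the genotype values below was not tested. The part of these shifts in the changes below was not tested beyond 1 fit with the cardiomyocyte mean as a covariate. In whole tissue, fewer cardiomyocytes and less RNA per cardiomyocyte cannot be told apart.

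Most of the 33 genes fell after I/R, and no member rose at either day. The list was chosen with earlier results of these data known, so the shares below do not extend to channel genes at large. The lists of further channel and connexin genes named later had medians between -0.14 and -0.015 at 1 day. At 5 days their medians lay between -0.18 and 0.020. These lists were not filtered by signal, and dim genes among them can show little change. All 33 members lay above the 40th percentile in at least 3 arrays, against 16091 of the 24479 genes. The list medians and the shares over all genes are not matched for signal. At 1 day, 23 of the 33 genes were lower than in sham hearts (limma on the mean of DKO and FFFF, adjusted p under 0.05), where 11.7% of all measured genes were lower and 10.5% higher. At 5 days, 28 of 33 were lower, where 14.5% of all genes were lower and 11.8% higher. The median log2 difference of the members was -0.81 at 1 day and -0.83 at 5 days, against -0.0025 and -0.016 over all genes. Of the 33 differences, 31 were negative at 1 day and 33 at 5 days. In 16 members, all 6 I/R arrays at 1 day lay below all 6 sham arrays, which held for 5.71% of all genes (4.39% lay above), and in 17 members at 5 days, against 7.46% of all genes (6.98% above). Both days are compared with the same 6 sham arrays, whose titles name no day after surgery, so a match in time is not known.

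**Figure D1:**
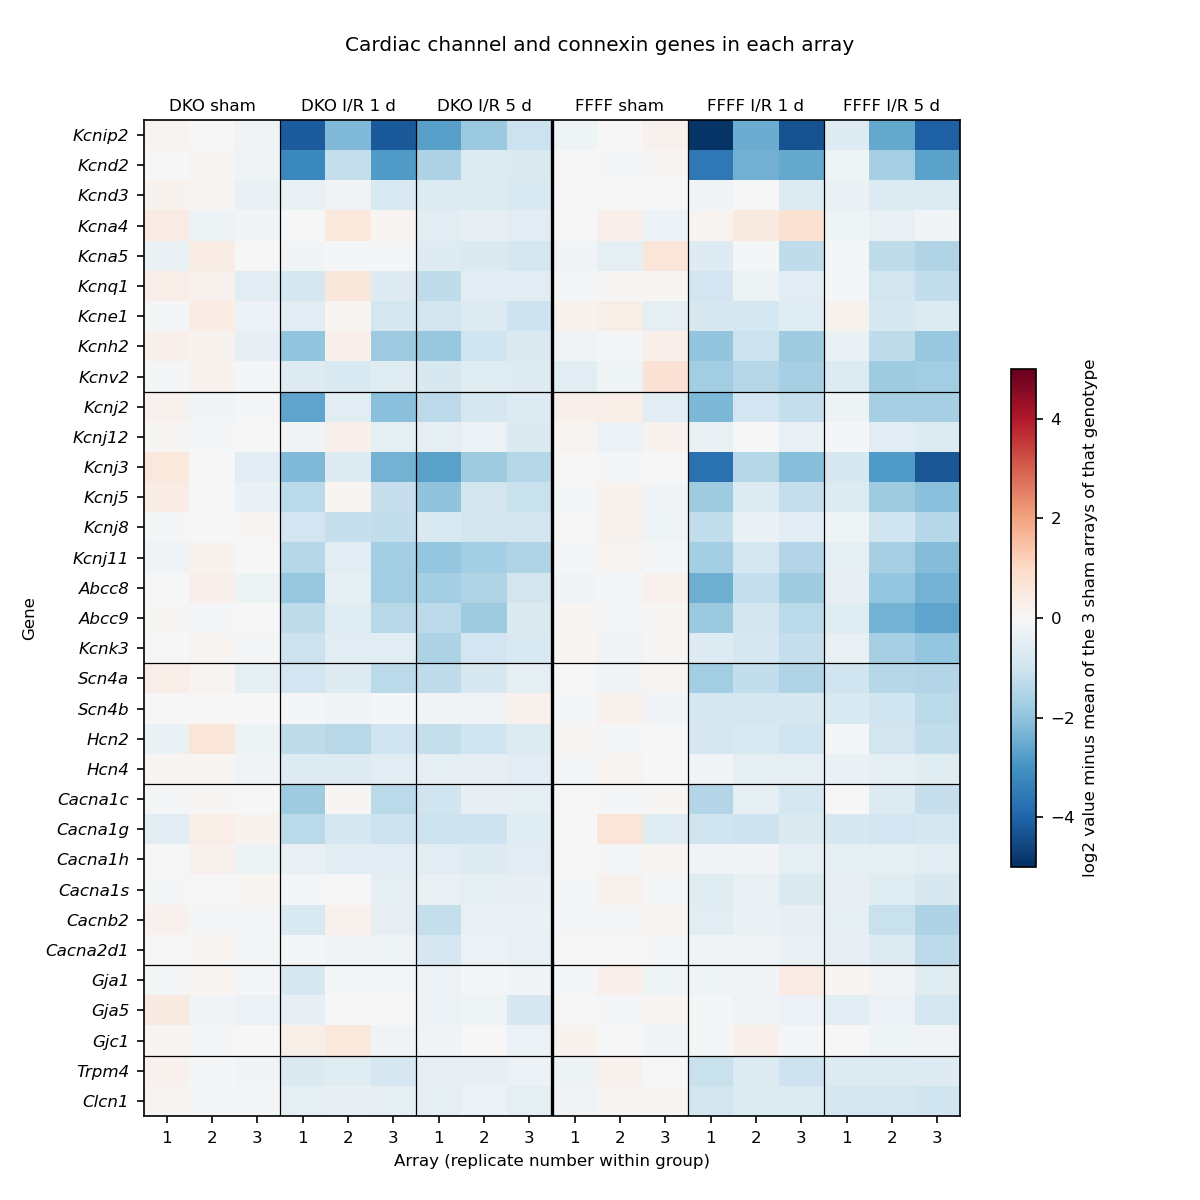
Log2 value of each of the 33 genes (rows, grouped by channel class) in each of the 18 arrays (columns, by group), minus the mean of the 3 sham arrays of the same genotype. Blue is below and red above that mean. After I/R most rows are blue in both genotypes, deepest in Kcnip2, Kcnd2 and Kcnj3, while the connexin rows stay pale, and FFFF I/R 5 days replicate 1 is paler than the other arrays of its group.

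Leaving out each array in turn kept 19 of the 23 calls at 1 day and 21 of the 28 at 5 days whichever array was left out. The calls that depended on single arrays were Kcne1, Kcnj5, Kcnk3 and Cacna1c at 1 day, and Kcnd2, Kcna5, Kcne1, Kcnh2, Kcnj2, Kcnj12 and Gja5 at 5 days. Adding sex to the fit left 22 members lower at 1 day and 23 at 5 days. The calls lost at 5 days were those of Kcnd2 (-1.70, adjusted p = 0.054), Kcne1 (-0.87, 0.058), Kcnh2 (-1.30, 0.13), Kcnj2 (-1.15, 0.16) and Cacna1g (-0.74, 0.082), whose standard errors were wider in that fit and whose differences stayed below 0.

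**Figure D2:**
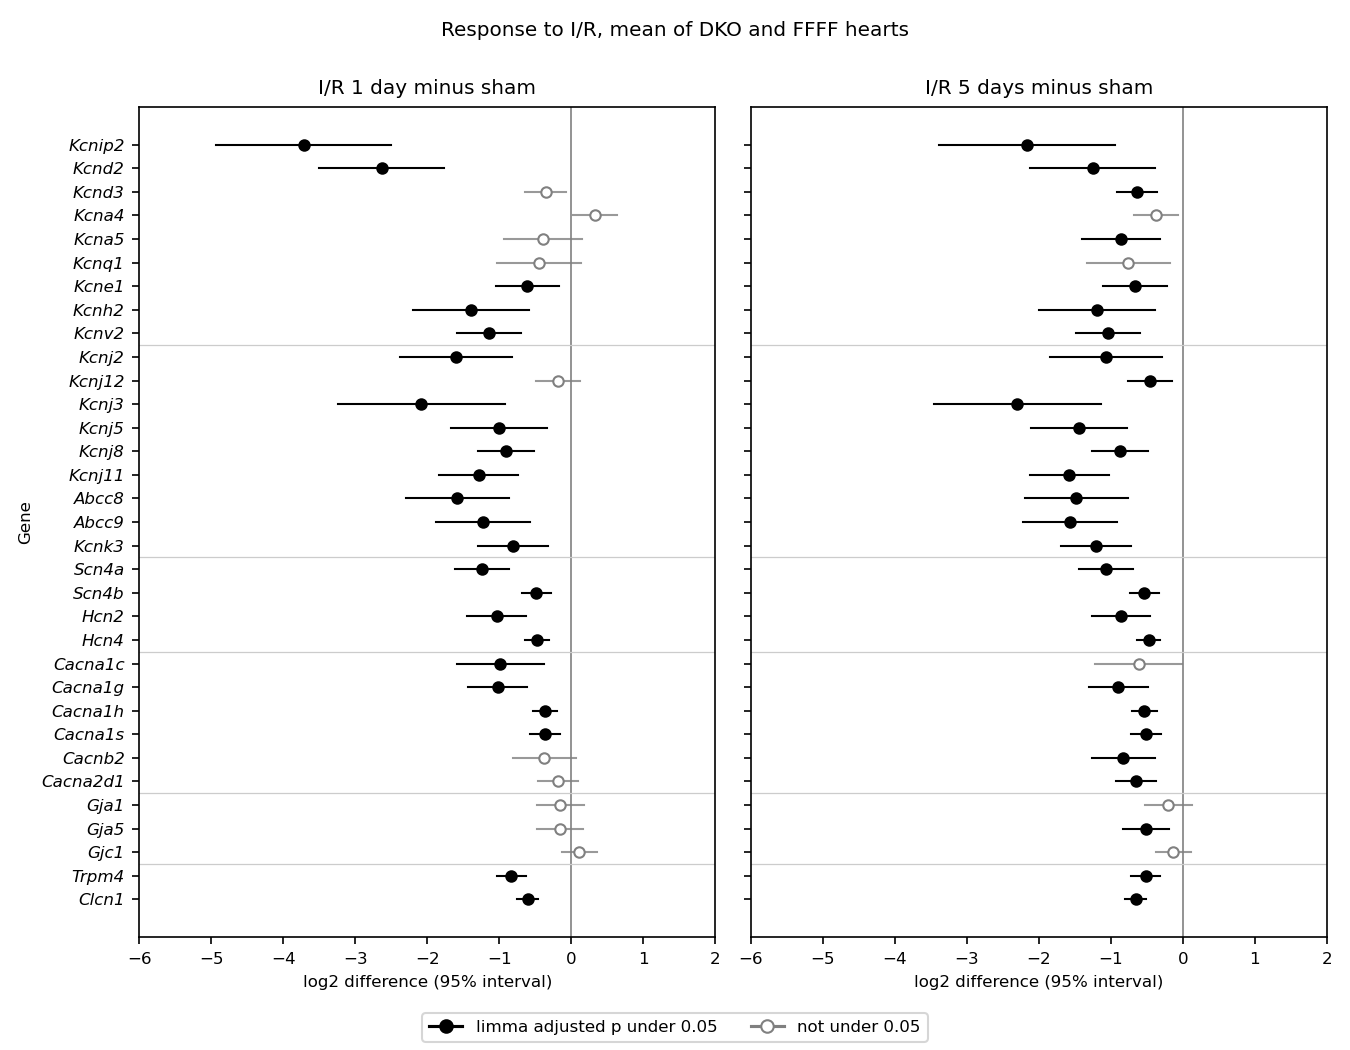
Log2 difference of I/R minus sham for each gene at 1 day (left) and 5 days (right), as the mean of DKO and FFFF hearts, with the 95% interval of the limma fit. Filled points passed an adjusted p of 0.05. Kcnip2 has the lowest value at 1 day (-3.72) and Kcnj3 at 5 days (-2.30), and 10 genes at 1 day and 5 at 5 days are drawn open.

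Of the 9 voltage-gated potassium channel members, 5 fell at 1 day and 7 at 5 days, and Kcnip2 and Kcnd2, subunits of the fast transient outward current, had the largest falls of all 33 genes at 1 day. Kcnip2 (Entrez gene 80906) encodes KChIP2, the accessory subunit that brings Kv4 channels to the membrane. In DKO hearts, Kcnip2 had values of 10.21, 10.09 and 9.90 after sham surgery, 5.90, 7.87 and 5.85 at 1 day, and 7.33, 8.20 and 8.98 at 5 days. In FFFF hearts it had 9.74, 9.996 and 10.17 after sham surgery, 5.06, 7.51 and 5.61 at 1 day, and 9.33, 7.40 and 5.90 at 5 days. No I/R array of either day reached the lowest sham array. Kcnip2 was 13.2-fold lower than in sham hearts at 1 day (log2 difference -3.72, standard error 0.57, limma adjusted p = 0.00072) and 4.48-fold lower at 5 days (-2.16, standard error 0.57, adjusted p = 0.012).

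Kcnd2 (Entrez gene 16508) encodes Kv4.2, a pore-forming subunit of the same current. Values in DKO hearts were 9.54, 9.68 and 9.36 after sham surgery, 6.30, 8.35 and 6.68 at 1 day, and 7.98, 8.86 and 8.79 at 5 days. Values in FFFF hearts were 9.69, 9.64 and 9.73 after sham surgery, 6.11, 7.27 and 7.13 at 1 day, and 9.46, 8.02 and 7.02 at 5 days. All 6 arrays at 1 day lay below the sham arrays, and at 5 days FFFF replicate 1 lay within the range of the sham arrays. Kcnd2 was 6.20-fold lower at 1 day (-2.63, standard error 0.40, adjusted p = 0.00074) and 2.38-fold lower at 5 days (-1.25, standard error 0.40, adjusted p = 0.034). The call at 5 days was lost when any of 8 arrays was left out, with the difference between -1.57 and -0.96.

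Kcnd3, which encodes the related pore subunit Kv4.3, differed less than Kcnd2 at 1 day. Its values in DKO hearts were 6.23, 6.17 and 5.73 after sham surgery, 5.67, 5.87 and 5.28 at 1 day, and 5.35, 5.37 and 5.30 at 5 days. FFFF hearts had 5.81, 5.76 and 5.80 after sham surgery, 5.62, 5.83 and 5.12 at 1 day, and 5.48, 5.11 and 5.11 at 5 days. The groups overlapped at 1 day (-0.35, standard error 0.13, adjusted p = 0.070) and were apart in both genotypes at 5 days (-0.63, standard error 0.13, adjusted p = 0.0030).

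**Figure D3:**
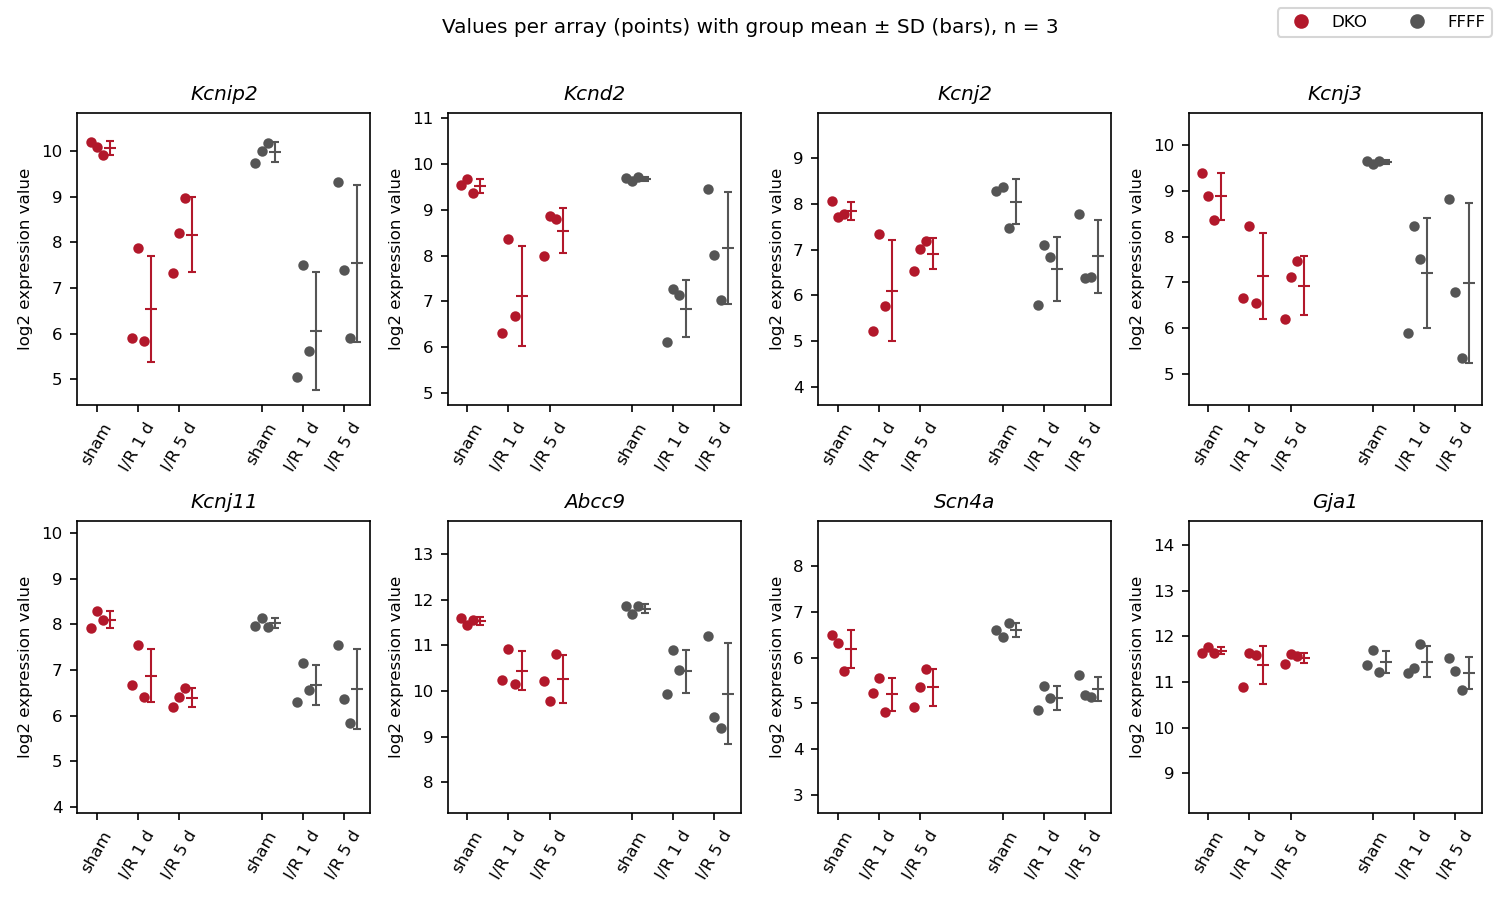
Log2 value per array (points) with group mean and SD (bars, n = 3) of 8 genes in DKO (red) and FFFF (grey) hearts, each panel spanning the same log2 range. Kcnip2 is between 5.06 and 7.87 at 1 day and between 9.74 and 10.21 after sham surgery, while the Gja1 points of all groups lie between 10.82 and 11.82.

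The 250 bases before an annotated transcript start of Kcnip2 and Kcnd2, the pair of partner genes that fell furthest at 1 day, are shown with those of Gja1, which passed the test at neither day. The Kcnip2 window lies within the span of the gene, upstream of an inner start, and those of Kcnd2 and Gja1 lie before the gene. They are the strand of the gene, from RefSeq on build GRCm38.p6, and capitals mark the GC box GGGCGG, searched on both strands, the motif known for Sp1-type factors.
Kcnip2, chr19:45816064-45816313, minus strand: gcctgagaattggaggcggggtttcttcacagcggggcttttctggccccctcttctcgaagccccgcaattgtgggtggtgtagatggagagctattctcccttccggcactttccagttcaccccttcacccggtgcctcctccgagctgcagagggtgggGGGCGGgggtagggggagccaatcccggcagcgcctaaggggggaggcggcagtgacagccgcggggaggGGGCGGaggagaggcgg
Kcnd2, chr6:21215096-21215345, plus strand: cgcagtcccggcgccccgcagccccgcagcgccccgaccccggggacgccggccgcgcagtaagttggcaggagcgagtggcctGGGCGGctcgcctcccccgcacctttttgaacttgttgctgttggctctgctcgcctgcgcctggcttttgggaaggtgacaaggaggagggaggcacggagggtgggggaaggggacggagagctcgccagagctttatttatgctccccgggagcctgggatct
Gja1, chr10:56377050-56377299, plus strand: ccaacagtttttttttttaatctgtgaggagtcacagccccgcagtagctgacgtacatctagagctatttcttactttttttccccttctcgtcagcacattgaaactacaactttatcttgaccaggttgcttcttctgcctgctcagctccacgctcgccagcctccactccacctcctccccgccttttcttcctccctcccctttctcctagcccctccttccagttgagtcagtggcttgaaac
The Kcnip2 window holds 2 matches, that of Kcnd2 holds 1, and that of Gja1 holds none. These genes were picked by their change, and matches were not compared between members that fell and members that did not. A window was at hand for 23 of the 33 genes, and 14 of their 26 windows held at least 1 match, against 32.7% of the 32851 windows of all genes. The windows were not matched for base composition, and a match is a description of the letters.

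The other voltage-gated potassium channel genes fell to differing degrees. Kcnv2 encodes Kv8.2, a silent subunit that joins other Kv channels, and it was dim. Its values were 4.73, 5.02 and 4.76 in DKO sham hearts, 4.19, 4.08 and 4.23 in DKO hearts at 1 day and 4.03, 4.23 and 4.19 in DKO hearts at 5 days. FFFF hearts had 5.17, 5.50 and 6.44 after sham surgery, 3.95, 4.28 and 4.03 at 1 day, and 5.03, 3.94 and 3.98 at 5 days. All 6 arrays at 1 day lay below the sham arrays (-1.15, standard error 0.21, adjusted p = 0.0019), and at 5 days FFFF replicate 1 fell among them (-1.03, standard error 0.21, adjusted p = 0.0024). Kcnh2 encodes the ERG channel of the rapid delayed rectifier, and it was lower at 1 day (-1.39, standard error 0.38, adjusted p = 0.017) and at 5 days (-1.19, standard error 0.38, adjusted p = 0.031). In DKO hearts at 1 day it had 8.92 in replicate 2, level with the highest DKO sham array (8.91), and 6.70 and 6.85 in the others.

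Kcnq1 and Kcne1 encode the pore and the accessory subunit of the slow delayed rectifier, a current that is small in the adult mouse ventricle. Kcne1 fell at 1 day (-0.61, standard error 0.21, adjusted p = 0.049) and at 5 days (-0.66, standard error 0.21, adjusted p = 0.030), and both calls depended on single arrays. Kcnq1 differed by -0.45 at 1 day (95% interval -1.03 to 0.13) and by -0.75 at 5 days (adjusted p = 0.055). Kcna5, which encodes the Kv1.5 channel of the ultrarapid delayed rectifier, differed by -0.39 at 1 day (adjusted p = 0.33) and was lower at 5 days (-0.85, standard error 0.25, adjusted p = 0.022). Kcna4, which encodes the Kv1.4 channel of the slow transient outward current, had the one positive difference among the potassium channel members at 1 day (0.33, 95% interval 0.02 to 0.63, adjusted p = 0.12). At 5 days it differed by -0.37 (adjusted p = 0.068).

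Of 24 further voltage-gated potassium channel genes, 2 rose and 4 fell at 1 day and 1 rose and 3 fell at 5 days, with medians of -0.015 and -0.099. Kcne4, an accessory subunit known to inhibit Kcnq1 channels, rose at 1 day (1.11, adjusted p = 0.012) and at 5 days (1.62, adjusted p = 0.0011).

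Of the 9 inward rectifier, ATP-sensitive and background potassium channel members, 8 fell at 1 day and 9 at 5 days. Kcnj2 and Kcnj12 encode Kir2.1 and Kir2.2, the main subunits of the resting inward rectifier current. Kcnj2 ranged from 5.22 to 7.33 in DKO and from 5.79 to 7.11 in FFFF hearts at 1 day, against 7.71 to 8.07 in DKO and 7.48 to 8.37 in FFFF sham hearts, so the 6 arrays lay below all sham arrays. It was 3.04-fold lower at 1 day (-1.61, standard error 0.36, adjusted p = 0.0064) and 2.09-fold lower at 5 days (-1.07, standard error 0.36, adjusted p = 0.043). The call at 5 days was lost when any of 11 arrays was left out. Kcnj12 overlapped between I/R and sham hearts at 1 day (-0.18, 95% interval -0.49 to 0.12, adjusted p = 0.44), and it was lower at 5 days (-0.45, standard error 0.14, adjusted p = 0.031).

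Kcnj3 and Kcnj5 encode GIRK1 and GIRK4, which form the acetylcholine-activated potassium channel, best known from the atrium and the sinus node. Kcnj3 ranged from 6.54 to 8.23 in DKO and from 5.89 to 8.23 in FFFF hearts at 1 day, against 8.36 to 9.40 in DKO and 9.59 to 9.67 in FFFF sham hearts. At 5 days it ranged from 6.21 to 7.46 in DKO and from 5.35 to 8.83 in FFFF hearts. Within each genotype and day, the I/R arrays lay below the sham arrays. Kcnj3 was 4.24-fold lower at 1 day (-2.08, standard error 0.54, adjusted p = 0.013) and 4.93-fold lower at 5 days (-2.30, standard error 0.54, adjusted p = 0.0062).

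Kcnj5 had 8.11, 7.70 and 7.39 in DKO sham hearts, 6.37, 7.84 and 6.60 in DKO hearts at 1 day and 5.72, 6.82 and 6.62 in DKO hearts at 5 days. FFFF hearts had 7.65, 7.85 and 7.57 after sham surgery, 5.90, 7.01 and 6.51 at 1 day, and 7.02, 5.90 and 5.58 at 5 days. The 6 arrays at 5 days lay below all sham arrays (-1.44, standard error 0.31, adjusted p = 0.0038), and at 1 day DKO replicate 2 lay among the sham arrays (-1.01, standard error 0.31, adjusted p = 0.032). Of 10 atrial markers, 1 rose at 1 day, and 4 rose and 1 fell at 5 days. Their mean log2 value was 6.51 to 6.80 in DKO and 6.38 to 6.56 in FFFF hearts at 1 day and 6.83 to 6.94 in DKO and 6.69 to 6.82 in FFFF hearts at 5 days, against 6.68 to 6.72 in DKO and 6.46 to 6.66 in FFFF sham hearts. Myl7, Sln and Bmp10 were below the 40th percentile in all 18 arrays, and the other 7 were not. The part of atrial tissue in these values was not tested.

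ATP-sensitive potassium channels are built from the Kir6 pore subunits Kcnj8 and Kcnj11 and the sulfonylurea receptors Abcc8 and Abcc9, and all 4 genes fell at both days. Kcnj11 encodes Kir6.2, the pore of the ventricular channel. In DKO hearts it had 7.92, 8.29 and 8.10 after sham surgery, 6.68, 7.54 and 6.42 at 1 day, and 6.18, 6.40 and 6.60 at 5 days. FFFF hearts had 7.96, 8.15 and 7.95 after sham surgery, 6.31, 7.14 and 6.57 at 1 day, and 7.54, 6.37 and 5.84 at 5 days. Every I/R array lay below every sham array at both days. Kcnj11 was 2.44-fold lower at 1 day (-1.29, standard error 0.26, adjusted p = 0.0033) and 2.98-fold lower at 5 days (-1.57, standard error 0.26, adjusted p = 0.00075).

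Abcc9 encodes SUR2, the regulatory subunit of the ventricular channel. Values in DKO hearts were 11.60, 11.45 and 11.55 after sham surgery, 10.24, 10.93 and 10.15 at 1 day, and 10.22, 9.77 and 10.82 at 5 days. In FFFF hearts they were 11.85, 11.69 and 11.86 after sham surgery, 9.94, 10.88 and 10.46 at 1 day, and 11.21, 9.43 and 9.18 at 5 days. No I/R array overlapped the sham arrays at 1 day (-1.23, standard error 0.30, adjusted p = 0.010) or at 5 days (-1.56, standard error 0.30, adjusted p = 0.0020).

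Abcc8 encodes SUR1, the regulatory subunit known from the pancreatic beta cell and, in the mouse heart, from atrial channels. DKO hearts had 8.39, 8.60 and 8.11 after sham surgery, 6.49, 7.86 and 6.64 at 1 day, and 6.67, 6.87 and 7.44 at 5 days. FFFF hearts had 7.95, 8.01 and 8.32 after sham surgery, 5.66, 6.91 and 6.33 at 1 day, and 7.68, 6.14 and 5.71 at 5 days. The I/R and sham arrays did not overlap at 1 day (-1.58, standard error 0.33, adjusted p = 0.0043) or at 5 days (-1.48, standard error 0.33, adjusted p = 0.0048).

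Kcnj8 encodes Kir6.1, the pore subunit of vascular smooth muscle and pericytes. Its values were 8.41, 8.50 and 8.57 in DKO sham hearts, 7.55, 7.34 and 7.28 in DKO hearts at 1 day and 7.73, 7.56 and 7.59 in DKO hearts at 5 days. FFFF hearts had 8.34, 8.50 and 8.12 after sham surgery, 7.10, 8.00 and 7.76 at 1 day, and 8.10, 7.33 and 6.88 at 5 days. All I/R arrays lay below all sham arrays, and the differences were -0.90 at 1 day (standard error 0.18, adjusted p = 0.0032) and -0.88 at 5 days (standard error 0.18, adjusted p = 0.0028). Of 13 mural cell markers, 2 rose and 6 fell at 1 day and 3 rose and 3 fell at 5 days.

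Kcnk3 encodes TASK-1, a background potassium channel. DKO hearts had 9.46, 9.61 and 9.39 after sham surgery, 8.40, 8.97 and 8.91 at 1 day, and 7.93, 8.53 and 8.73 at 5 days. FFFF hearts had 9.54, 9.28 and 9.51 after sham surgery, 8.79, 8.60 and 8.27 at 1 day, and 9.08, 7.80 and 7.52 at 5 days. The groups did not overlap at 1 day (-0.81, standard error 0.23, adjusted p = 0.020) or at 5 days (-1.20, standard error 0.23, adjusted p = 0.0017). Of 18 further background, inward rectifier and calcium-activated potassium channel genes, 2 rose and 3 fell at 1 day and 2 rose and 2 fell at 5 days. Kcnn2, which encodes the calcium-activated channel SK2, fell at 1 day (-0.94, adjusted p = 0.0075) and at 5 days (-1.31, adjusted p = 0.00082), and Kcnma1, which encodes the BK channel, rose by 0.79 at 5 days (adjusted p = 0.0022).

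All 4 sodium and pacemaker channel members fell at both days. Scn4a encodes the sodium channel of skeletal muscle. In DKO hearts it had 6.50, 6.32 and 5.71 after sham surgery, 5.23, 5.55 and 4.82 at 1 day, and 4.93, 5.37 and 5.74 at 5 days. In FFFF hearts it had 6.60, 6.46 and 6.76 after sham surgery, 4.85, 5.37 and 5.11 at 1 day, and 5.62, 5.18 and 5.13 at 5 days. The arrays of 1 day lay below all sham arrays (-1.24, standard error 0.18, adjusted p = 0.00052). At 5 days DKO replicate 3 lay just above the lowest sham array (-1.06, standard error 0.18, adjusted p = 0.00079). Of 15 skeletal muscle markers, 0 were called at 1 day and Mybpc2 rose at 5 days, and Myh1, Myh4 and Mylpf were below the 40th percentile in all 18 arrays.

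Scn4b encodes an auxiliary beta subunit of sodium channels and was among the dimmest members. DKO hearts had 4.29, 4.29 and 4.33 after sham surgery, 4.19, 4.16 and 4.19 at 1 day, and 4.17, 4.13 and 4.52 at 5 days. FFFF hearts had 4.98, 5.30 and 4.94 after sham surgery, 4.20, 4.21 and 4.27 at 1 day, and 4.29, 4.06 and 3.73 at 5 days. The mean difference from sham was -0.48 at 1 day (standard error 0.09, adjusted p = 0.0026) and -0.54 at 5 days (standard error 0.09, adjusted p = 0.0010). These means join unequal parts, since the difference was -0.12 in DKO and -0.85 in FFFF hearts at 1 day and -0.03 in DKO and -1.04 in FFFF hearts at 5 days.

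Hcn2 and Hcn4 encode channels of the pacemaker current, and Hcn4 is known as the main isoform of the sinus node. Hcn2 had 6.23, 7.18 and 6.33 in DKO sham hearts, 5.32, 5.20 and 5.60 in DKO hearts at 1 day and 5.39, 5.57 and 5.90 in DKO hearts at 5 days. FFFF hearts had 6.22, 6.10 and 6.19 after sham surgery, 5.34, 5.41 and 5.18 at 1 day, and 6.07, 5.25 and 4.93 at 5 days. Every I/R array lay below every sham array, with differences of -1.04 at 1 day (standard error 0.19, adjusted p = 0.0021) and -0.86 at 5 days (standard error 0.19, adjusted p = 0.0044).

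Hcn4 had 4.65, 4.65 and 4.41 in DKO sham hearts, 3.91, 3.91 and 4.06 in DKO hearts at 1 day and 4.11, 4.17 and 3.99 in DKO hearts at 5 days. FFFF hearts had 4.46, 4.73 and 4.55 after sham surgery, 4.45, 4.11 and 4.15 at 1 day, and 4.26, 4.09 and 3.98 at 5 days. FFFF I/R 1 day replicate 1 was the one I/R array of either day within the sham range, and the differences were -0.48 at 1 day (standard error 0.08, adjusted p = 0.00094) and -0.47 at 5 days (standard error 0.08, adjusted p = 0.00068). Of 10 conduction system markers, 3 fell at each day and none rose.

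Of 16 further sodium and pacemaker channel genes, 3 fell and none rose at 1 day and 4 fell and 1 rose at 5 days. Gpd1l, known as a modifier of cardiac sodium current, fell at 1 day (-0.66, adjusted p = 0.017) and at 5 days (-0.93, adjusted p = 0.0020). Fgf13, an intracellular regulator of sodium channels, differed by -0.71 at 1 day (adjusted p = 0.13) and was lower at 5 days (-1.63, adjusted p = 0.0017).

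Of the 6 calcium channel members, 4 fell at 1 day and 5 at 5 days. Cacna1c encodes the pore of the cardiac L-type channel. It ranged from 9.19 to 11.03 in DKO and from 9.31 to 10.30 in FFFF hearts at 1 day, against 10.92 to 11.01 in DKO and 10.72 to 10.85 in FFFF sham hearts. DKO I/R 1 day replicate 2 was thus level with the sham arrays, and the others of its group were at 9.19 and 9.63. The difference was -0.98 at 1 day (standard error 0.28, adjusted p = 0.022), with adjusted p up to 0.062 when 1 of 3 arrays was left out, and -0.61 at 5 days (standard error 0.28, adjusted p = 0.14).

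Cacnb2 and Cacna2d1 encode the beta and alpha-2-delta subunits that join this pore. Neither passed at 1 day, with differences of -0.37 for Cacnb2 (95% interval -0.81 to 0.06) and -0.18 for Cacna2d1 (95% interval -0.46 to 0.09). At 5 days all I/R arrays of both genes lay below all sham arrays. Cacna2d1 had 9.85, 9.98 and 9.85 in DKO sham hearts, 9.82, 9.75 and 9.69 in DKO hearts at 1 day and 9.05, 9.60 and 9.52 in DKO hearts at 5 days. FFFF hearts had 10.09, 10.11 and 10.03 after sham surgery, 9.89, 9.91 and 9.74 at 1 day, and 9.66, 9.42 and 8.76 at 5 days. The differences at 5 days were -0.65 for Cacna2d1 (standard error 0.13, adjusted p = 0.0022) and -0.83 for Cacnb2 (standard error 0.20, adjusted p = 0.0081).

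Cacna1g and Cacna1h encode T-type channels, which are low in the adult ventricle and known from the conduction system. Cacna1g had 5.04, 5.89 and 5.74 in DKO sham hearts, 4.19, 4.68 and 4.47 in DKO hearts at 1 day and 4.46, 4.51 and 4.96 in DKO hearts at 5 days. FFFF hearts had 5.41, 6.01 and 4.78 after sham surgery, 4.40, 4.35 and 4.67 at 1 day, and 4.59, 4.46 and 4.52 at 5 days. At 1 day no array reached the sham arrays (-1.02, standard error 0.19, adjusted p = 0.0023), and at 5 days DKO replicate 3 lay above the lowest sham array (-0.89, standard error 0.19, adjusted p = 0.0035).

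Cacna1h had 5.10, 5.31 and 4.84 in DKO sham hearts, 4.70, 4.56 and 4.57 in DKO hearts at 1 day and 4.51, 4.45 and 4.55 in DKO hearts at 5 days. FFFF hearts had 5.01, 4.92 and 5.15 after sham surgery, 4.85, 4.90 and 4.54 at 1 day, and 4.58, 4.57 and 4.49 at 5 days. The difference was -0.37 at 1 day (standard error 0.08, adjusted p = 0.0045), where the ranges overlapped between but not within the genotypes, and -0.53 at 5 days (standard error 0.08, adjusted p = 0.00040), where no array overlapped. Cacna1s encodes the L-type channel of skeletal muscle. It had 4.94, 5.03 and 5.15 in DKO sham hearts, 4.93, 5.07 and 4.57 in DKO hearts at 1 day and 4.69, 4.53 and 4.64 in DKO hearts at 5 days. FFFF hearts had 5.16, 5.46 and 5.15 after sham surgery, 4.67, 4.90 and 4.55 at 1 day, and 4.85, 4.66 and 4.48 at 5 days. Ranges overlapped at 1 day (-0.37, standard error 0.10, adjusted p = 0.014) and were apart at 5 days (-0.51, standard error 0.10, adjusted p = 0.0017).

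Of 19 further calcium channel genes, 2 fell and none rose at 1 day, and 4 rose and 3 fell at 5 days. Cacnb3, a beta subunit known from neurons and smooth muscle, rose by 0.71 at 5 days (adjusted p = 0.0013). Stim1, a sensor of calcium stores, fell by 0.51 at 1 day (adjusted p = 0.00084).

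Of the 3 connexins, none passed at 1 day and Gja5 alone fell at 5 days. Gja1 (Entrez gene 14609) encodes connexin 43, the main connexin of ventricular muscle, which fibroblasts also express. It ranged from 10.90 to 11.62 in DKO and from 11.20 to 11.82 in FFFF hearts at 1 day and from 11.39 to 11.61 in DKO and from 10.82 to 11.52 in FFFF hearts at 5 days, against 11.64 to 11.77 in DKO and 11.22 to 11.69 in FFFF sham hearts. In DKO hearts the I/R arrays lay just below the sham arrays at both days, and in FFFF hearts they overlapped. The mean differences were -0.15 at 1 day (95% interval -0.48 to 0.18, adjusted p = 0.58) and -0.20 at 5 days (95% interval -0.53 to 0.13, adjusted p = 0.41). The fit thus leaves room for a fall of up to 0.53 on the log2 scale at 5 days.

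Gjc1 encodes connexin 45, known from the conduction system, and differed by 0.11 at 1 day (95% interval -0.13 to 0.36) and by -0.13 at 5 days (95% interval -0.38 to 0.12). Gja5 encodes connexin 40, known from atrium, conduction system and arterial endothelium. Its difference was -0.15 at 1 day (adjusted p = 0.55) and -0.51 at 5 days (standard error 0.15, adjusted p = 0.020), and adjusted p was 0.056 at 5 days without FFFF I/R 5 days replicate 3. Of 12 endothelial markers, 3 fell at 1 day and 5 at 5 days. Of 22 further connexin and intercalated disc genes, 4 rose and 5 fell at 1 day and 1 rose and 8 fell at 5 days. The ankyrin gene Ank2, whose product anchors channels and transporters in cardiomyocytes, fell at 1 day (-1.20, adjusted p = 0.0032) and at 5 days (-1.12, adjusted p = 0.0035), and Panx1, which encodes a channel for ATP release, rose at 5 days (1.498, adjusted p = 0.00025).

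Trpm4 and Clcn1 had the smallest p-values of the group at 1 day. Trpm4 encodes a calcium-activated cation channel. DKO hearts had 6.23, 5.92 and 5.88 after sham surgery, 5.28, 5.42 and 5.18 at 1 day, and 5.61, 5.58 and 5.72 at 5 days. FFFF hearts had 6.13, 6.61 and 6.38 after sham surgery, 5.25, 5.71 and 5.34 at 1 day, and 5.70, 5.71 and 5.75 at 5 days. No I/R array overlapped the sham arrays, with differences of -0.83 at 1 day (standard error 0.09, adjusted p = 0.00014) and -0.51 at 5 days (standard error 0.09, adjusted p = 0.0014).

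Clcn1 encodes the chloride channel of skeletal muscle and was dim. DKO hearts had 4.68, 4.50 and 4.47 after sham surgery, 4.09, 4.14 and 4.06 at 1 day, and 4.05, 4.27 and 4.10 at 5 days. FFFF hearts had 4.85, 5.15 and 5.06 after sham surgery, 4.10, 4.34 and 4.34 at 1 day, and 4.18, 4.16 and 4.03 at 5 days. I/R and sham arrays did not overlap at 1 day (-0.61, standard error 0.07, adjusted p = 0.00011) or at 5 days (-0.65, standard error 0.07, adjusted p = 3.8e-05). Of 18 further chloride and cation channel genes, 4 rose and 6 fell at 1 day and 6 rose and 6 fell at 5 days. The mechanically gated channel Piezo2 rose by 1.87 at 5 days (adjusted p = 8.5e-05).

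Transcription factors that are known to control cardiac conduction and channel genes were read from the same fit. Of 22 such genes, none rose and 10 fell at 1 day, and 1 rose and 13 fell at 5 days, with medians of -0.42 and -0.54. Irx3 and Irx5 shape conduction and, in mouse, the Kcnd2 gradient across the ventricular wall. Irx5 fell by 0.96 (adjusted p = 0.00077) and Irx3 by 1.62 (adjusted p = 0.0015) at 5 days, and at 1 day the differences were -0.39 (adjusted p = 0.094) and -0.72 (adjusted p = 0.11). Esrrg, a nuclear receptor of energy metabolism, fell at 1 day (-0.83, adjusted p = 0.013) and at 5 days (-1.17, adjusted p = 0.0015). Klf15, known in mouse for its control of Kcnip2, was looked up after other values were seen, and it fell at 1 day (-1.55, adjusted p = 0.019) and at 5 days (-2.02, adjusted p = 0.0036).

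Between 1 and 5 days, 2 members rose and 2 fell, where 7.07% of all genes rose and 7.32% fell. Kcnd2 was higher at 5 days than at 1 day by 1.38 (standard error 0.40, adjusted p = 0.034) and Trpm4 by 0.32 (standard error 0.09, adjusted p = 0.037). Kcnip2 differed by 1.55 between the days (95% interval 0.34 to 2.77, adjusted p = 0.087). Kcna4 was lower at 5 days than at 1 day by a log2 difference of -0.70 (standard error 0.14, adjusted p = 0.0044), as was Cacna2d1 (-0.46, standard error 0.13, adjusted p = 0.025). Kcna4 passed whichever array was left out. The count of 4 was 8 without FFFF I/R 5 days replicate 1, 1 without replicate 1 of either genotype at 1 day, and 2 without FFFF I/R 5 days replicate 2 or any one of the DKO arrays at 5 days.

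To see whether related genes changed by like amounts, 17 pairs were compared within each array. Some pairs form 1 channel (Kcnip2 and Kcnd2, Kcnj3 and Kcnj5, Kcnj11 and Abcc9), and others are related channels (Kcnd2 and Kcnd3, Kcnj8 and Kcnj11). The difference of the pair was compared between I/R and sham hearts by an exact two-sided permutation test within genotypes, whose smallest p is 0.005, with adjustment over the 34 tests. Of these, 11 passed, 7 at 1 day and 4 at 5 days. Kcnip2 fell further than its pore subunit Kcnd2 at 1 day (-1.09, exact p = 0.010, adjusted p = 0.034) and at 5 days (-0.91, exact p = 0.005, adjusted p = 0.021). Within arrays, Kcnip2 minus Kcnd2 was -1.51 to 0.23 at 1 day and -1.12 to 0.19 at 5 days, against 0.05 to 0.67 in sham hearts. Kcnd2 in turn fell further than Kcnd3 at 1 day (-2.28, exact p = 0.005, adjusted p = 0.021), while at 5 days the difference of -0.62 did not pass (exact p = 0.13, adjusted p = 0.21). Mean signals over all arrays were lower for Kcnd3 (5.59) and Kcnj12 (5.60) than for Kcnd2 (8.31) and Kcnj2 (7.06). Low signals can compress a difference, and the part of this in the pairs was not tested.

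**Figure D4:**
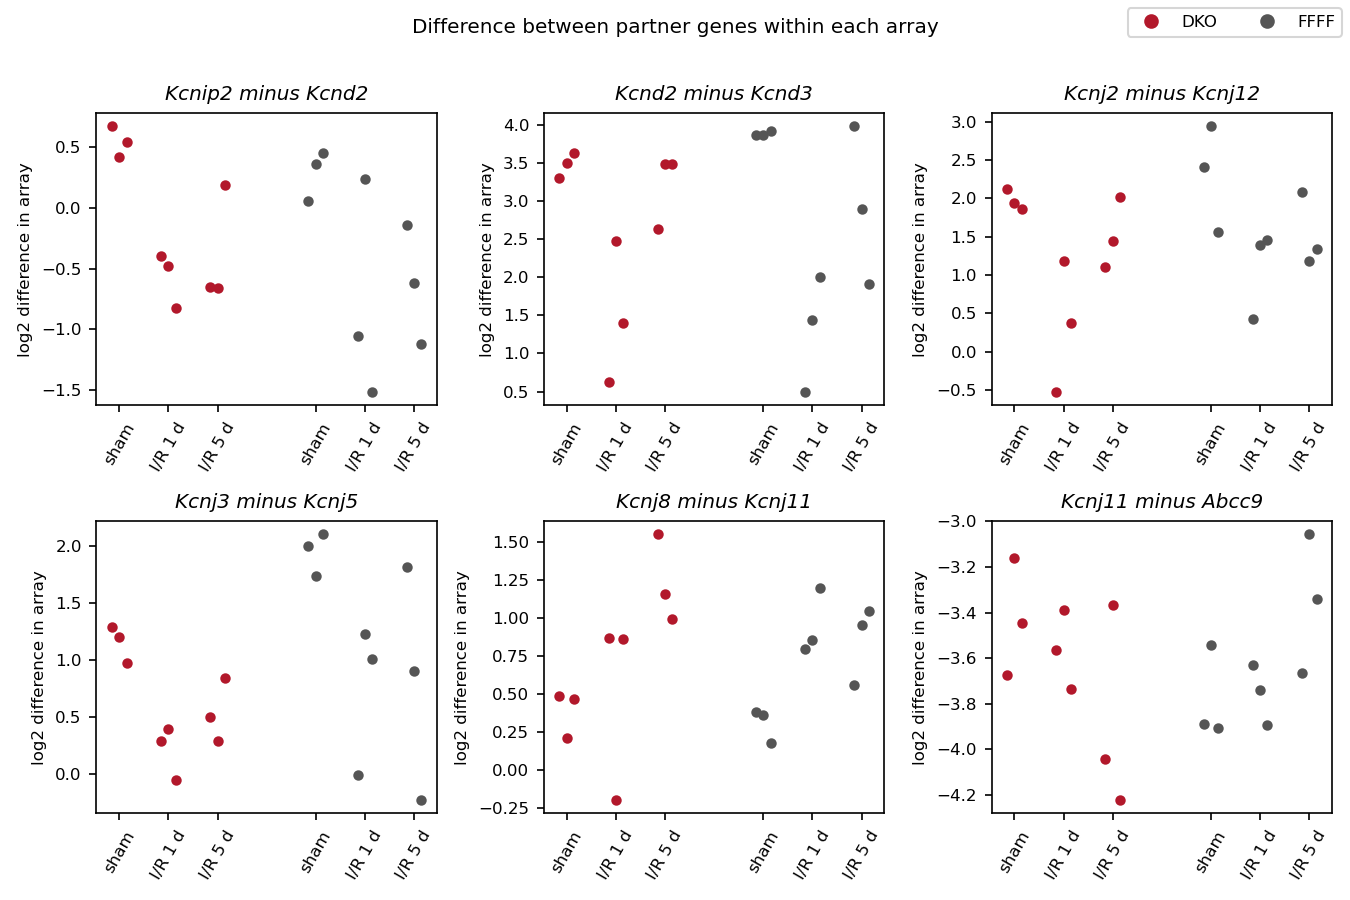
Difference in log2 value between partner genes within each array, in DKO (red) and FFFF (grey) hearts by group, 1 point per array. Kcnip2 minus Kcnd2 lies between 0.05 and 0.67 after sham surgery and reaches -1.51 at 1 day, whereas Kcnj11 minus Abcc9 spans -4.22 to -3.06 in I/R hearts and -3.91 to -3.16 in sham hearts.

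Among inward rectifiers, Kcnj2 fell further than Kcnj12 at 1 day (-1.42, exact p = 0.005, adjusted p = 0.021), and Kcnj3 further than Kcnj5 at 1 day (-1.08, exact p = 0.005, adjusted p = 0.021) and at 5 days (-0.87, exact p = 0.010, adjusted p = 0.034). Of the pore genes of ATP-sensitive channels, Kcnj8 minus Kcnj11 was higher by 0.70 at 5 days than after sham surgery (exact p = 0.005, adjusted p = 0.021). Kcnj11 and Abcc9, which make up the ventricular channel, differed by -0.06 at 1 day (exact p = 0.62) and by -0.01 at 5 days (exact p = 0.94). Hcn4 against Hcn2 also passed at 1 day, but Hcn4 was dim in most arrays and no size is read from that pair. Cacnb2 minus Cacna1c was higher by 0.61 at 1 day (exact p = 0.015, adjusted p = 0.046). The remaining 2 tests that passed set Kcnip2 against Kcnd3. The number of passing tests was 4 without any one of the DKO sham arrays and 7 without any one of the FFFF sham arrays, where fewer regroupings are possible.

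Deletion of CaMKIIδ and CaMKIIγ was read at each state as DKO minus FFFF. No member passed the test in sham hearts, at 1 day or at 5 days, where 0.00817%, 0% and 0% of all genes passed. In each state 0 of all genes passed as lower in DKO hearts, so the deleted Camk2d and Camk2g did not pass either. The test thus missed a known difference, and the lack of calls does not show equal expression. At an unadjusted p under 0.05 there were 4, 1 and 0 members, among 1459, 1639 and 590 of all genes. Member differences lay between -0.87 (Kcnv2) and 0.41 (Hcn2) in sham hearts, between -0.47 (Kcnj2) and 0.70 (Abcc8) at 1 day, and between -0.31 (Kcne1) and 0.63 (Kcnip2) at 5 days. The 95% intervals reached a median of 0.58 to each side of the difference, and 1.72 in the widest case. These intervals are unadjusted, while a call needs adjustment over all genes. Differences of that size and larger could thus be missed. When replicate 1 of the DKO hearts at 1 day was left out, the range at 1 day was -0.31 (Kcnj8) to 0.96 (Kcnh2) and 0 members passed.

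**Figure D5:**
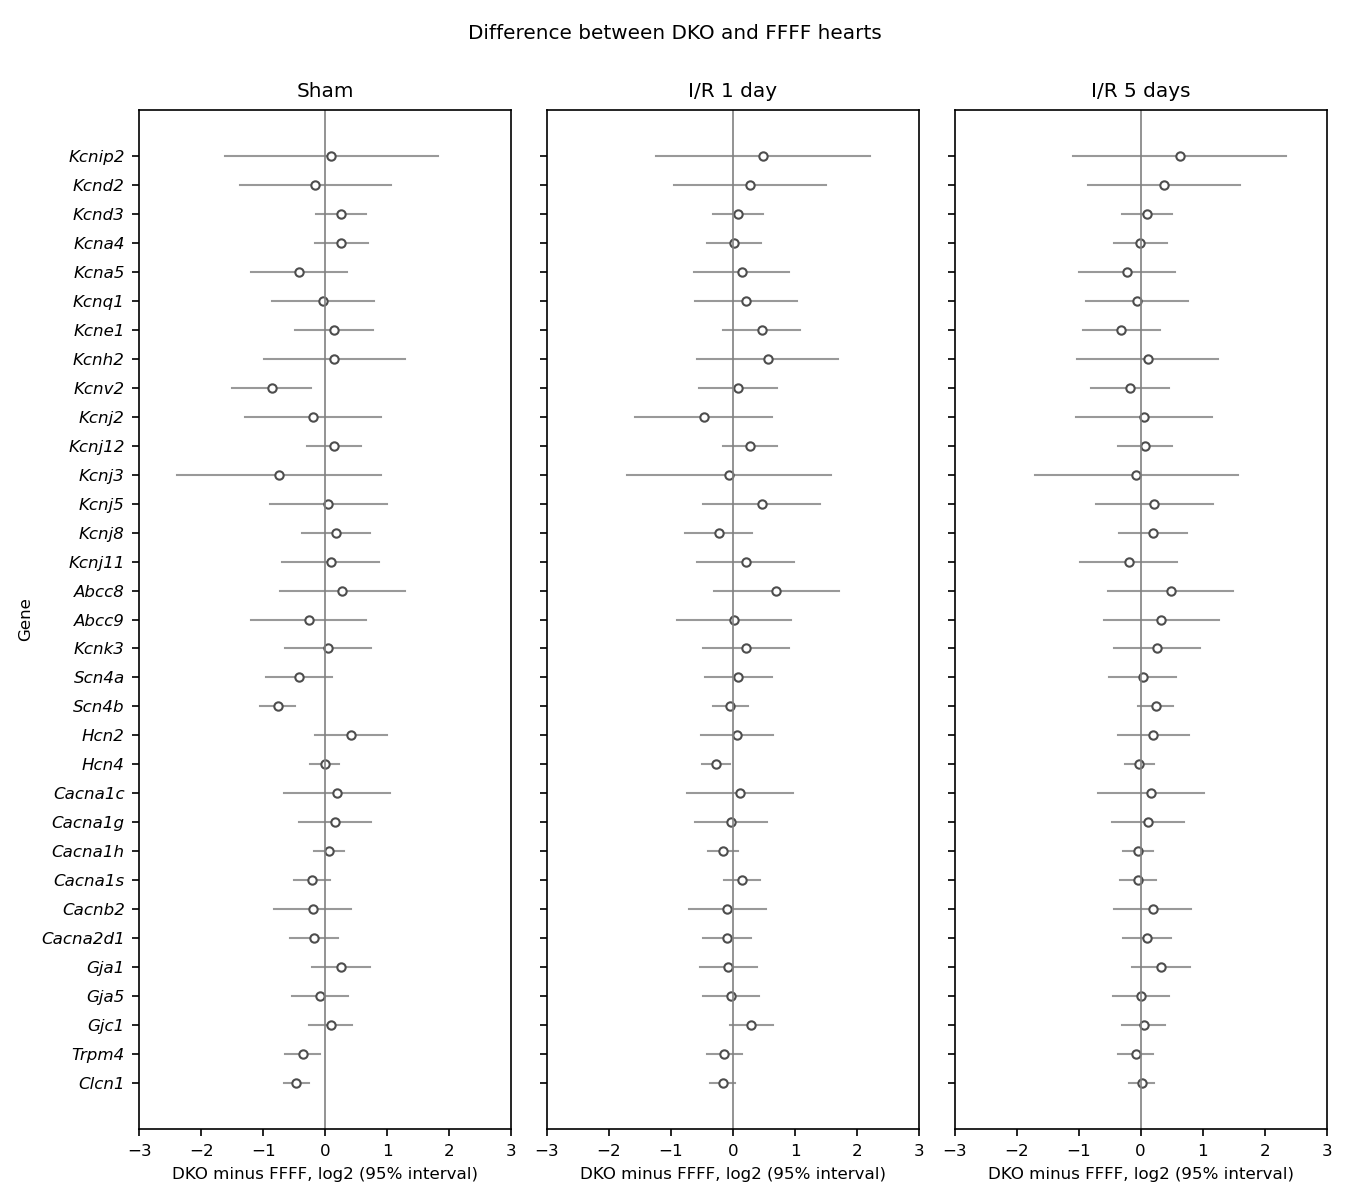
DKO minus FFFF difference in log2 value with its 95% interval (limma) for each gene in sham hearts, at 1 day and at 5 days after I/R. No gene passed an adjusted p of 0.05. In sham hearts Scn4b, Clcn1, Kcnv2 and Trpm4 lie left of 0 with unadjusted intervals that exclude it.

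Scn4b came nearest to a genotype difference. In sham hearts it was 4.29, 4.29 and 4.33 in DKO and 4.98, 5.30 and 4.94 in FFFF hearts, without overlap (-0.77, standard error 0.13, adjusted p = 0.14). Adjusted p was 0.037 with array weights and 0.030 with the cardiomyocyte mean as a covariate, and up to 0.72 when single arrays were left out. The next members by p were Clcn1 (-0.47, standard error 0.09, adjusted p = 0.28), Kcnv2 (-0.87, standard error 0.29, adjusted p = 0.69) and Trpm4 (-0.37, standard error 0.13, adjusted p = 0.72), and their calls did not pass under any of 28 alternatives.

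The response to I/R was also read in each genotype. At 1 day, 10 of 33 members fell in DKO hearts, where 2.54% of all genes fell and 2.58% rose, and 11 in FFFF hearts, where 5.79% of all genes fell and 5.93% rose. The DKO count at 1 day includes replicate 1, whose Camk2d and Camk2g lay within the FFFF range. At 5 days, 5 fell in DKO hearts (2.84% of all genes fell and 3.23% rose) and 19 in FFFF hearts (10% fell and 8.26% rose). No member rose in either genotype. The median member difference was -0.67 in DKO and -0.85 in FFFF hearts at 1 day, and -0.75 in DKO and -0.89 in FFFF hearts at 5 days. The counts themselves are no test of a difference between genotypes. The test of that difference called 0 members at 1 day, where 0.00409% of all genes passed, and 0 at 5 days, where 0% passed, with 3 and 2 members at an unadjusted p under 0.05. The smallest adjusted p was that of Scn4b at both days (0.97 and 0.88), whose fall was smaller in DKO than in FFFF hearts by 0.72 at 1 day and by 1.015 at 5 days. Scn4b is dim and stood at 4.29 to 4.33 in DKO sham hearts, near the lower end of the measured range. Its lowest array was at 3.73, in FFFF hearts at 5 days, and the lowest value of any gene was 3.49. The part of its low signal in the unequal falls was not tested.

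Within a genotype the counts moved with single arrays. In DKO hearts at 1 day the count of 10 was 3, 2 or 6 without sham replicate 1, 2 or 3. It was 1 without I/R 1 day replicate 1 and 3 without I/R 1 day replicate 3. I/R 1 day replicate 1 is the array with Camk2d and Camk2g within the FFFF range, so its genotype is uncertain. The count also fell to 2 or 3 without some other arrays of these groups. The part of the uncertain genotype in this count was not tested. In DKO hearts at 5 days the count of 5 was 0 without sham replicate 1 or 2 or I/R 5 days replicate 1, 1 without I/R 5 days replicate 2, and 14, 9 and 8 without FFFF I/R 5 days replicate 1, FFFF I/R 5 days replicate 3 and DKO I/R 1 day replicate 2, which enter through the shared spread. In FFFF hearts at 1 day the count of 11 was 7, 6 and 7 without sham replicate 2 and I/R 1 day replicates 1 and 3, and 20 and 18 without FFFF I/R 5 days replicate 1 and DKO I/R 1 day replicate 2. In FFFF hearts at 5 days the count of 19 was 12 and 11 without sham replicates 1 and 2, and 9 and 7 without I/R 5 days replicates 2 and 3.

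In 3 of the 4 I/R groups, 1 array was the highest for most members. DKO I/R 1 day replicate 2 had the highest value of its 3 arrays in 26 of the 33 genes, FFFF I/R 1 day replicate 2 in 24, and FFFF I/R 5 days replicate 1 in 30. In DKO hearts at 5 days the counts were 3, 15 and 15, and in the sham groups no array was highest in more than 16. The 3 arrays named had the highest cardiomyocyte marker mean of their groups, 12.53, 12.52 and 12.60. The median member stood 1.32 below the FFFF sham mean in FFFF I/R 5 days replicate 3, which had the lowest cardiomyocyte mean of all arrays (11.65), and 0.41 below it in FFFF I/R 5 days replicate 1. The median SD of a member was 0.18 in DKO and 0.15 in FFFF sham hearts, 0.36 in DKO and 0.26 in FFFF hearts at 1 day, and 0.26 in DKO and 0.55 in FFFF hearts at 5 days.

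With the cardiomyocyte marker mean added to the fit, 9 members were lower at 1 day and 3 at 5 days. The marker mean was itself lower in every I/R array than in every sham array, so the covariate and the surgery overlap in this fit. The 9 at 1 day were Kcnip2, Kcnd2, Kcnj11, Abcc8, Scn4a, Hcn4, Cacna1g, Trpm4 and Clcn1, and the 3 at 5 days were Kcnj11, Cacna1h and Clcn1. Kcnip2 differed by -2.06 at 1 day in that fit (adjusted p = 0.00036) and Kcnd2 by -1.503 (adjusted p = 0.0019), and at 5 days by 0.019 (adjusted p = 0.99) and 0.23 (adjusted p = 0.77), so the 5 day falls of both were not seen there.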

How the data were processed

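Values are deposited on the log2 scale. The authors hybridised RNA to Affymetrix mouse gene 2.0 ST arrays and computed these log2 values by RMA with quantile normalization and a custom chip definition file (version 18), with 1 value per Entrez gene and array. Quantile normalization gives all arrays one distribution, so differences are relative to all genes. Symbols were taken from the platform table or, for 556 genes, from the RefSeq gene table alone (Scn4a among them), and 642 genes have no symbol. No value was transformed further. The 18 arrays were grouped by their labels. One linear model of the 6 groups was fitted to all 24479 genes with limma 3.58.1 in R 4.3.3 (12 residual degrees of freedom), and its contrasts were adjusted after Benjamini and Hochberg over all genes, with a threshold of 0.05. The number of arrays limits the precision. The fit was tested on simulated data.

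The members, gene lists, partner pairs and tests were chosen with earlier results of these data known. Values per array are given for the 20 called members with the smallest p at either day and ranges or differences for the others, and further genes of a list were named by smallest p or are stated as chosen after their values were seen.

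DKO and FFFF arrays of the same replicate number at 1 day deviated together from their group means (correlations 0.382, 0.529 and 0.360). The numbers may thus pair the 1 day samples, but the main fit and its DKO minus FFFF values do not use such a pairing. They entered only as the replicate block among the alternatives. Over the 45 pairs of equal number in all groups the median correlation was -0.0045. Alternatives were variance trend with robust moderation, array weights, a gene-wise analysis of variance, a fit of the compared groups alone, removal of dim genes (above the 40th percentile in fewer than 3 arrays), sex, the cardiomyocyte marker mean, the replicate block, a threshold of 0.01, each array left out in turn and, chosen after seeing the data, female arrays alone.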

Additional observations from a re-analysis of the deposited data

How the results depend on the processing

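The counts of lower members at 1 day (23) and 5 days (28), read over both genotypes, were 19 to 25 and 21 to 31 when single arrays were left out. They were 9 and 3 with the cardiomyocyte marker mean in the fit, and 15 at 1 day at a threshold of 0.01. Females alone gave 24 and 23, with 1 array per genotype at 5 days, each lone array assumed to vary like the other groups. The replicate block gave 24 and 27, and with it no count for either genotype moved by over 1.5 times and 0 members differed between genotypes. The change from 1 to 5 days (4 members) was 1 to 8 with arrays left out, 2 by gene-wise analysis of variance, with the compared groups alone or with sex, 8 with the marker mean, and 1 at 0.01.

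In DKO hearts the count at 1 day (10) was 1 to 15 with arrays left out, 5 by analysis of variance, 1 with the compared groups alone, 3 with the marker mean and 0 at 0.01. At 5 days (5) it was 0 to 14 with arrays left out, 9 with a variance trend, 20 with array weights or the compared groups alone, 11 without dim genes, 2 with sex, 1 with the marker mean, and 0 at 0.01 or in females alone. In FFFF hearts the count at 1 day (11) was 6 to 20 with arrays left out, 22 with array weights, 18 with the compared groups alone, 7 with the marker mean and 6 at 0.01. At 5 days (19) it was 7 to 25 with arrays left out, 4 with the compared groups alone, 2 with the marker mean and 10 at 0.01. The genotype difference in sham hearts (0) was 1, Scn4b, with array weights or the marker mean. Partner pair tests (11) gave 4 to 15 with arrays left out.

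With the marker mean in the fit, 14 differences of single members turned positive, none past the threshold. Called at 5 days before were Kcnip2 (0.019), Kcnd2 (0.23), Kcnh2 (0.061) and Kcnj2 (0.033). Not called before were Cacna1c (0.32), Kcnq1 (0.14), Gja1 (0.13) and Gjc1 (0.075) at 5 days, and Kcna5 (0.057), Kcnq1 (0.23), Kcnj12 (0.094), Cacnb2 (0.16), Cacna2d1 (0.11) and Gja1 (0.099) at 1 day. Over all 33 members and both days, 1103 differences with an array left out kept direction and side of the threshold, 72 were lost and 13 gained. Under the other settings 631 kept both, 68 were lost, 13 gained and these 14 turned. The causes of these changes were not tested. Dim genes (Scn4b, Hcn4, Clcn1, Kcnv2 and Cacna1g) are measured near background, which can compress their differences.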
